A study of Mus musculus with 12 samples.

Results

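The 40 genes described here carry out DNA replication, mitosis and cell cycle control. They were chosen by symbol from a list of such genes, by a rule with no threshold on measured values. The choice was made with earlier results of these data known, so the list is not independent of them. All 40 were found among the 22013 entries of the deposited expression table. The series used RNA-seq of cells from the mouse aorta that its labels call endothelial, with 4 groups of 3 libraries. The study's title concerns glycine receptor α2, encoded by Glra2, in endothelium-dependent vasodilation through endothelial nitric oxide synthase. The groups were Glra2 global knockout mice given glycine (knockout glycine 4 to 6), knockout mice given saline (knockout saline 1 to 3), wild-type mice given glycine (wild-type glycine 4 to 6) and wild-type mice given saline (wild-type saline 1 to 3). All 4 groups had received an angiotensin II infusion, so none is free of that hormone, and both glycine and saline were injected into the peritoneum. The glycine libraries are labelled 800 mg/kg/day, except knockout glycine 5, which is labelled 80 mg/kg/day. No age, strain or number of animals was read from the labels, and whether the 3 libraries in each group came from separate animals is not stated. The p-values therefore measure the spread between these libraries, which may be technical.

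A dividing cell first licenses its replication origins, when the loading factors Cdc6 and Cdt1 place the MCM helicase on DNA. Cyclin E and the transcription factor E2F1 then drive entry into S phase, Cdc45 and the GINS complex turn the helicase on, and the fork copies DNA with the sliding clamp PCNA and with nucleotides made by ribonucleotide reductase and thymidylate synthase. Cyclins A and B with Cdk1 start mitosis, the Aurora, Polo and Bub kinases build and check the spindle, and the anaphase-promoting complex with Cdc20 ends it. Most vessel wall cells of an adult are at rest, and several blood cell types, including developing lymphocytes, divide often.

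Replication and mitotic genes are known to carry different short promoter elements: E2F sites in many replication genes, and a CCAAT box with a cell cycle homology region (CHR) in many mitotic genes. Promoters of 33 of the 40 genes were found in the RefSeq table (assembly GRCm38.p6), each with 250 bases before and 50 bases after the gene's start. The 7 not matched were Aurkb, Tpx2, Ccna2, Foxm1, Mcm4, Kif20a and Gins2. The promoters below belong to the 2 genes that passed a test (Cdc45 and Mcm3), to Plk1, whose 2 glycine differences ran in opposite directions, and to 2 mitotic genes with several elements. All are written 5′ to 3′ on the strand of the gene, and capitals mark CCAAT, the CHR words TTTGAA and TTCGAA, and any of 4 E2F words (TTGGCGC or TTCGCGC or TTCCCGC or TTGCCGC), on either strand. The regions are chr16:18811923-18812222 (minus strand), chr1:20820263-20820562 (minus), chr7:122159185-122159484 (plus), chr9:70421505-70421804 (minus) and chr11:99024140-99024439 (minus).
Cdc45: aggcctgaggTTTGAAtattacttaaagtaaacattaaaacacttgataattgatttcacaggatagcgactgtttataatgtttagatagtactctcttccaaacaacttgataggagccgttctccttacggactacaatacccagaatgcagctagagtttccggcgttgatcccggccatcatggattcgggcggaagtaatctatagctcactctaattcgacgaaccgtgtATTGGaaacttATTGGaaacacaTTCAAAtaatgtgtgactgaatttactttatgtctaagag
Mcm3: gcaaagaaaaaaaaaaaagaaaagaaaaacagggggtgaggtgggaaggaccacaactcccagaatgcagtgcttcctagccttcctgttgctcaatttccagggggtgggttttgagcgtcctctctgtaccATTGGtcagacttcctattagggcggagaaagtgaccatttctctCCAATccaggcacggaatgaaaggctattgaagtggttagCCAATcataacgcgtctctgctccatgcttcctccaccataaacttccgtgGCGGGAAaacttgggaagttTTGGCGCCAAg
Plk1: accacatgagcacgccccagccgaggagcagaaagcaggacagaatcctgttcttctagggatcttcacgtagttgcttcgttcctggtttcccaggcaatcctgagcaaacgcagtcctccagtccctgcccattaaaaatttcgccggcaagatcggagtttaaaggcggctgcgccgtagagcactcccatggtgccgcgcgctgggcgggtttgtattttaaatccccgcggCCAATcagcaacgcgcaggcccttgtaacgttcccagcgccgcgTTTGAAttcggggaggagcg
Ccnb2: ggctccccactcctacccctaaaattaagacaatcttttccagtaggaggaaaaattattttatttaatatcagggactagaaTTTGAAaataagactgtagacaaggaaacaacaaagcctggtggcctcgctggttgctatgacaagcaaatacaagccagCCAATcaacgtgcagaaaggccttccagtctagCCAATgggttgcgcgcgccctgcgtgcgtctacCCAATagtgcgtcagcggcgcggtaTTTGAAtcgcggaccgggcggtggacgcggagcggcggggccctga
Top2a: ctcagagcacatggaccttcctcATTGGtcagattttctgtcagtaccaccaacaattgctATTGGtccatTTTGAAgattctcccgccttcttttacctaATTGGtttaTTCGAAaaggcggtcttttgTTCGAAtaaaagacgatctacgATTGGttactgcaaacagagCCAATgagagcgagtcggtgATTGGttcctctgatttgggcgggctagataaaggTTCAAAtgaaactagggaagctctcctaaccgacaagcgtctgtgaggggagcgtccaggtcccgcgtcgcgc
The Ccnb2 promoter held 3 CCAAT boxes, which begin 87, 54 and 21 bases before the start, and CHR words that begin 167 bases before and 4 bases after it. The Mcm3 promoter held 3 CCAAT boxes and 3 E2F words, of which the last 2 overlap, and no CHR word. The Plk1 promoter held 1 CCAAT box and 1 CHR word, the Cdc45 promoter 2 of each, and the Top2a promoter 6 CCAAT boxes and 4 CHR words.

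Mitotic and replication promoters held these elements in different shares. A CCAAT box was present in 16 of 18 mitotic promoters (88.9%) and in 9 of 15 replication promoters (60%), while 37.9% of the 27025 promoters in the table held one. A CHR word was present in 14 of 18 mitotic promoters (77.8%) and in 3 of 15 replication promoters (20%), against 19.4% of all promoters. The E2F words ran the other way, with 3 of 18 mitotic promoters (16.7%) and 8 of 15 replication promoters (53.3%), against 9.69% of all. These matches describe letters in a window and are no evidence of binding. For 30 of the 33 promoters the last 25 bases lie in a transcript of the same gene in GENCODE vM21.

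**Figure D1:**
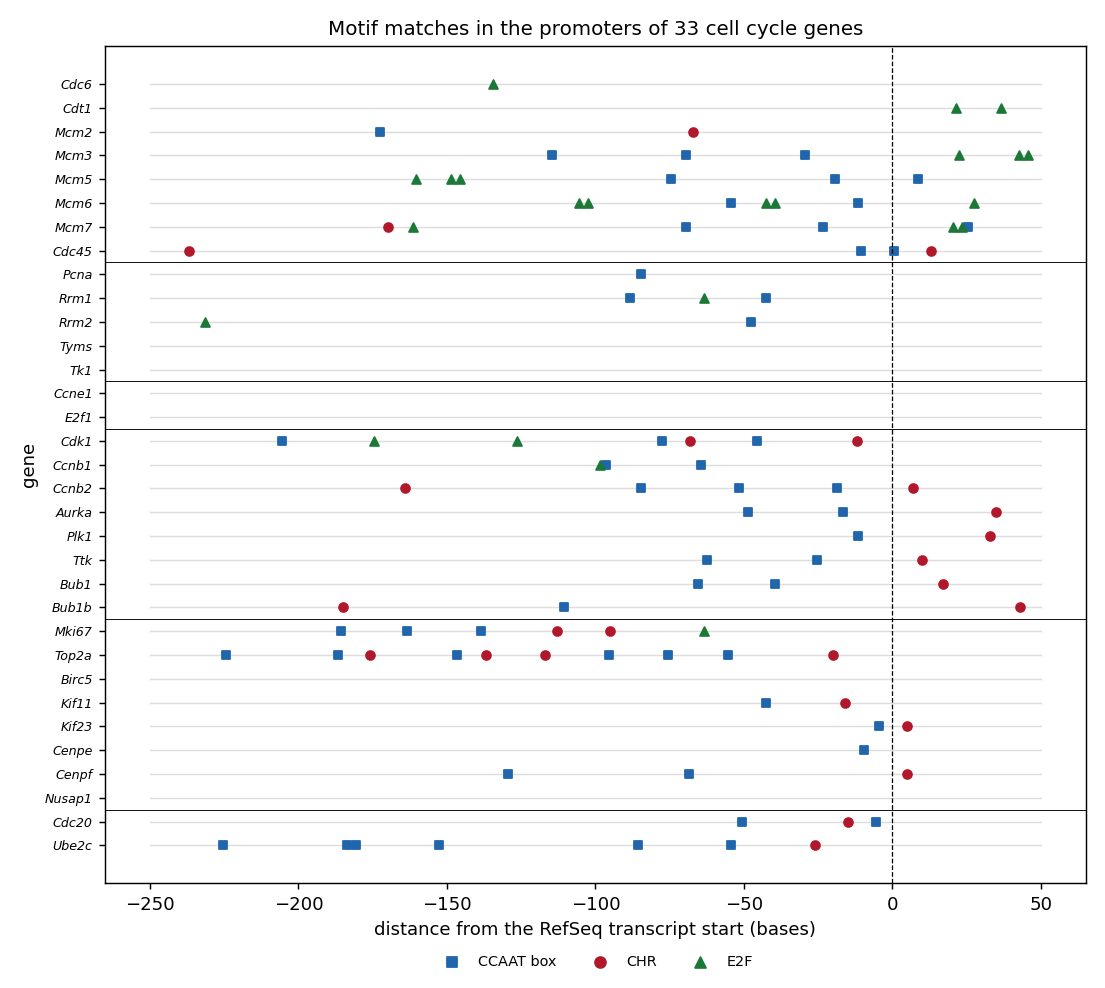
Matches to the CCAAT box, the CHR words and the E2F words in the promoters of 33 cell cycle genes, plotted at the middle of each match by distance from the RefSeq transcript start (bases), with genes in rows ordered by role. CHR matches lay in 14 of 18 mitotic promoters, in the lower rows, and E2F matches in 8 of 15 replication promoters, in the upper rows.

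The labelled cell type was set against marker genes before the results. All 10 endothelial markers were detected in all 12 libraries, with Pecam1, an endothelial junction protein, at 82.0 to 161 CPM (a count relative to its library total, adjusted with the TMM method). Some genes of other cells were far higher: the fibroblast gene Dcn had 3385 to 10624 CPM and the macrophage gene Lyz2 had 2461 to 14679 CPM. The smooth muscle gene Acta2, at 26.01 to 132 CPM, was near Pecam1. The samples thus held RNA of several cell types, and in such bulk samples fewer cells of a type and less RNA per cell cannot be told apart. Glra2 itself had 0 counts in all 12 libraries, where 3 counts would be 0.118 to 0.279 CPM, so the genotype labels could not be checked with it. Library totals ran from 14.5 to 24.3 M estimated counts. Wild-type glycine 4 stood apart: it detected 12945 genes, where the other 11 libraries detected 13387 to 14397.

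All 40 genes passed the filter on low counts and entered the test with 13928 genes. Per length (FPKM, averaged over 12 libraries), Pcna was the most abundant at 42.3, followed by Tyms at 19.1, Mcm6 at 16.3, Birc5 at 11.05, Rrm1 at 10.5 and Cdk1 at 9.22. The lowest were Mki67 at 1.18, Cenpe at 0.805, Ttk at 0.695 and Foxm1 at 0.314 FPKM. Pcna lay at the 90.1 percentile of the tested genes by this measure.

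Summed over the 40 genes, the level was highest in knockout glycine libraries. The sum was 637 ± 37.8 CPM in knockout glycine, 486 ± 41.3 CPM in knockout saline, 392 ± 19.7 CPM in wild-type glycine and 391 ± 40.3 CPM in wild-type saline (SD, n = 3 each). The lowest knockout glycine library had 609 CPM, above the highest knockout saline library at 527 CPM. Both wild-type groups lay lower still, at 371 to 410 CPM with glycine and 346 to 423 CPM with saline, and these 2 ranges overlapped. The median of the 40 levels followed the same order at 10.9, 8.28, 6.25 and 6.25 CPM. Of the 40 genes, 28 had their highest library in knockout glycine, 7 in knockout saline, 2 in wild-type glycine and 3 in wild-type saline. The lowest library lay in knockout glycine for 0 genes, in knockout saline for 4, in wild-type glycine for 15 and in wild-type saline for 21. These counts of highest and lowest libraries were not made over all genes, so they have no background share beside them. The sum carries no test, and the tests are those of single genes.

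Measures of library make-up moved with the groups. Mitochondrial genes took 30.6 ± 4.92% of the counts in knockout glycine, 39.9 ± 9.12% in knockout saline, 35.1 ± 4.12% in wild-type glycine and 55.6 ± 7.96% in wild-type saline (SD, n = 3 each). The TMM factors ran from 0.644 in wild-type saline 2 to 1.23 in knockout glycine 5. Without these factors the 40 genes summed to 752 ± 87.9, 466 ± 78.1, 435 ± 23.6 and 315 ± 40.8 counts relative to the plain library total, scaled as CPM, in the same order of groups. Knockout glycine was still highest by this measure (660 to 835). The wild-type groups no longer overlapped, with glycine (419 to 462) wholly above saline (273 to 354). Knockout saline (399 to 552) overlapped wild-type glycine. The group means kept their order, while which of the lower 3 groups overlapped depended on the scaling. With mitochondrial and haemoglobin genes left out of the fit, 39 of 40 log2 fold changes for knockout against wild type under glycine were above 0, as with them.

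Markers of other cell types moved with this sum. The 12 thymocyte markers, genes of developing T cells, summed to 148 to 180 CPM in knockout glycine, 30.3 to 40.3 CPM in knockout saline, 25.01 to 52.8 CPM in wild-type glycine and 20.2 to 27.6 CPM in wild-type saline. Among them Dntt, the enzyme that adds bases at joined antigen receptor genes, had 452, 407 and 218 counts in knockout glycine 4 to 6, 0, 18 and 0 in knockout saline, 0, 0 and 14 in wild-type glycine, and 1, 24 and 0 in wild-type saline. Rag1, which cuts those genes, had 248, 249 and 46 counts in knockout glycine, 0, 4 and 0 in knockout saline, and 0 in all 6 wild-type libraries. Ptcra, on the same list, did not follow, with 0, 6 and 6 counts in knockout glycine and 16 in wild-type glycine 4. Of 11 thymocyte markers tested, 10 had a log2 fold change above 0 between genotypes under glycine. In that comparison 2 of the 11 were called higher (edgeR), where 2.56% of all genes were called. No listed thymocyte marker was at 0 in knockout glycine 5 or 6 and 1 (Ptcra) was at 0 in knockout glycine 4, while 3 to 7 were at 0 in each of the other 9 libraries. The 9 T and NK cell markers summed to 217 to 242 CPM in knockout glycine and to 33.8 to 96.8 CPM over the other 9 libraries, and only Cd3e in wild-type saline 3 was at 0. The 9 B and plasma cell markers had 1193 ± 59.9, 566 ± 116, 491 ± 197 and 211 ± 32.0 CPM in knockout glycine, knockout saline, wild-type glycine and wild-type saline (SD, n = 3 each). Fibroblast markers were lower in both knockout groups, at 11431 ± 1190 and 7735 ± 993 CPM, than in the wild-type groups, at 18253 ± 655 and 19852 ± 3529 CPM. Of these markers 8 of 8 fell in knockout under saline (edgeR). Myeloid and red cell lists were highest in knockout saline instead. Macrophage and monocyte markers had 7956 ± 307, 14601 ± 2582, 7393 ± 164 and 3910 ± 814 CPM in knockout glycine, knockout saline, wild-type glycine and wild-type saline, and 9 of 9 rose in knockout under saline (edgeR). Neutrophil and marrow precursor markers had 243 ± 11.6, 427 ± 39.2, 148 ± 51.2 and 160 ± 69.5 CPM, and 6 of 9 rose in that comparison. Erythroid markers had 15283 ± 5699, 46883 ± 15037, 26343 ± 16726 and 19419 ± 8188 CPM, and 2 of 9 rose. Endothelial markers had 354 ± 69.9, 305 ± 78.3, 397 ± 57.9 and 630 ± 149 CPM, and 3 of 10 fell. Smooth muscle markers had 84.0 ± 5.48, 55.5 ± 13.6, 182 ± 14.0 and 186 ± 49.3 CPM, and 3 of 7 fell. Over all genes 11.3% were called in knockout against wild type under saline. The part of these cell types in the levels of the cell cycle genes was not tested.

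**Figure D2:**
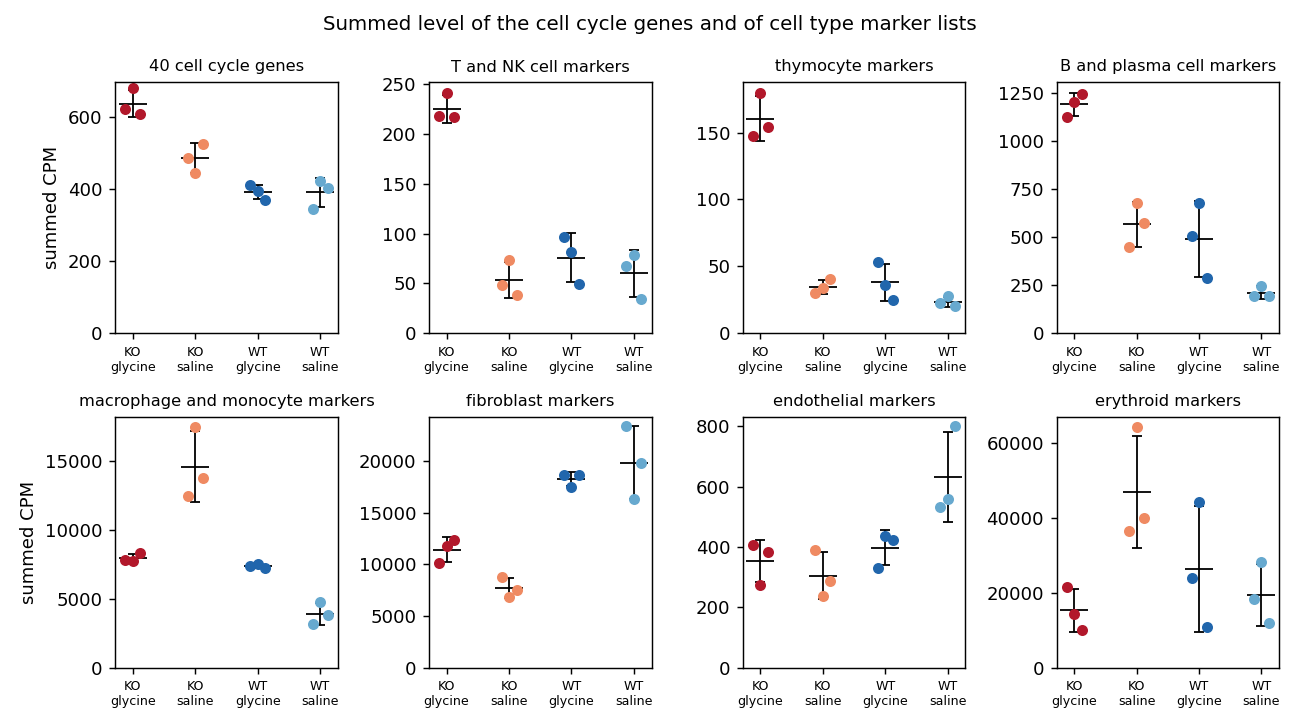
Summed CPM of the 40 cell cycle genes and of 7 marker lists in each library by group, with points for libraries and bars for mean and SD (n = 3). The 3 knockout glycine libraries were highest for the cell cycle genes (609 to 680 CPM) and for thymocyte markers (148 to 180 CPM).

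The first comparison asked what glycine did in wild-type mice. Among the 40 genes 1 changed, Cdc45, a component of the active replicative helicase, which rose. That is 2.5% of the members, and 1.39% of all 13928 genes were called. Cdc45 had 50, 59 and 95 counts in wild-type glycine 4 to 6, against 1, 0 and 0 counts in wild-type saline 1 to 3. The 2 groups did not overlap, and wild-type saline lay at or under the level of 1 count. The ratio was 161 (95% counting interval 28.6 to 6395), and the fitted log2 fold change was 6.98 ± 1.27 (SE; adjusted p = 0.0143, edgeR's quasi-likelihood test). The call ended without wild-type saline 3, at an adjusted p of 0.0611. By annotation 5.96% of the Cdc45 exon bases overlap Ufd1, on the opposite strand, and whether counting used strand is not stated.

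The other 39 genes did not pass in wild-type mice. The log2 fold change was above 0 for 25 of 40 genes, with a median of 0.11, and above 0 for 49.8% of all genes, with a median of 0. Values of the 3 glycine libraries lay wholly above saline for 1 gene (Cdc45) and wholly below for 2 (Mcm4, a helicase subunit, and Plk1). Over all genes 15.7% were separated in either direction, 8.54% upward and 7.19% downward. Mcm4 had 18.4, 24.3 and 16.4 CPM in wild-type glycine, against 26.3, 24.9 and 27.6 CPM in wild-type saline, a log2 difference of -0.41 ± 0.24 (adjusted p = 0.572).

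In knockout mice, glycine changed none of the 40 genes by edgeR's test at an adjusted p under 0.05. Over all 13928 genes 1.13% were called. At an unadjusted p under 0.05 there were 2 genes, Mcm6 and Birc5 (11.1% of all genes), and DESeq2 also called 0. Direction leaned upward: 33 of 40 log2 fold changes were above 0, with a median of 0.36, against 49.5% of all genes and a median of -0.01. The 3 glycine libraries lay wholly above the 3 saline libraries for 9 genes, none wholly below, while 21% of all genes were separated in either direction, 11.4% upward and 9.59% downward. These 9 were Birc5, Plk1, Tyms, Cdk1, Ccnb2, Foxm1, Aurka, Rrm2 and Mki67, of which 7 act in mitosis.

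Birc5 encodes survivin, a subunit of the complex that corrects chromosome attachment. It had 13.7, 18.9 and 22.2 CPM in knockout glycine, 9.84, 5.54 and 10.2 CPM in knockout saline, 7.32, 10.1 and 5.65 CPM in wild-type glycine, and 3.81, 10.2 and 2.09 CPM in wild-type saline. All 3 knockout glycine libraries lay above the other 9. The log2 fold change was 1.10 ± 0.51 for glycine against saline in knockout mice (adjusted p = 0.449). Against wild type under glycine it was 1.25 ± 0.52 (adjusted p = 0.284).

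Mcm6, another helicase subunit, had 57.1, 69.5 and 41.8 CPM in knockout glycine, against 40.3, 35.8 and 44.2 CPM in knockout saline. The groups overlapped, and the log2 fold change was 0.49 ± 0.22 (adjusted p = 0.413). Wild-type libraries overlapped both, at 55.1, 45.0 and 38.1 CPM with glycine and 44.8, 39.4 and 43.6 CPM with saline.

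**Figure D3:**
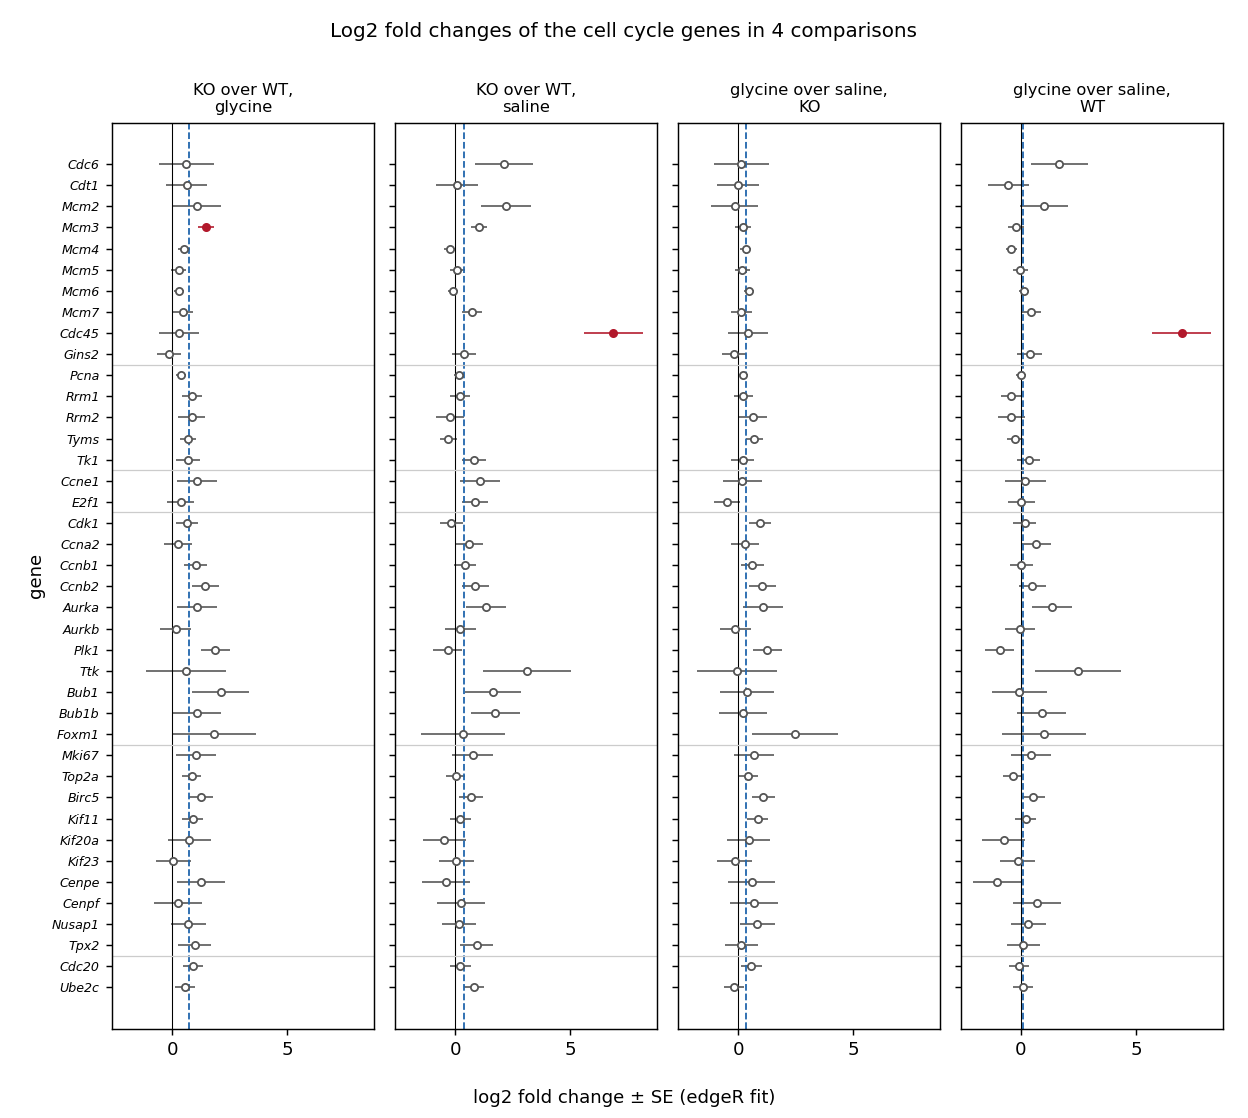
Log2 fold change with SE (edgeR) of each of the 40 genes, in rows by role, in the 4 pairwise comparisons, with filled red points for an adjusted p under 0.05 and a dashed line at the median of the 40. Cdc45 passed in 2 comparisons and Mcm3 in 1, and 39 of 40 values lay above 0 for knockout against wild type under glycine.

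Under saline, knockout against wild type, the gene called was again Cdc45. It was 1 of 40 (2.5%), below the 11.3% of all genes called in this comparison. Cdc45 had 12, 101 and 107 counts in knockout saline, against 1, 0 and 0 in wild-type saline. The groups did not overlap, although knockout saline 1 lay well under the other 2 knockout libraries. The ratio was 160 (95% counting interval 28.5 to 6356) and the fitted log2 fold change 6.87 ± 1.27 (SE; adjusted p = 0.00228, edgeR). This comparison and glycine against saline in wild type share the 3 wild-type saline libraries, so both calls rest on the same near-zero values. Without wild-type saline 3 the test called 3 members, with Bub1b and Ccnb2 beside Cdc45. In knockout glycine 4 to 6 Cdc45 had 101, 156 and 40 counts, so that 9 libraries held at least 12 counts and the wild-type saline libraries at most 1. No other member had wild-type saline wholly below the other 9 libraries, and 3.25% of all genes did.

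Of the 40 genes, 32 had a log2 fold change above 0 in knockout under saline, with a median of 0.37, against 48.5% of all genes and a median of -0.02. Knockout libraries were wholly above wild type for 11 genes and wholly below for 1, Mcm4, where 29.9% of all genes were separated, 15.3% upward and 14.7% downward. The origin licensing group held 5 of the 11: Cdc45, Mcm3, Mcm2, Cdc6 and Mcm7. Mcm2 had 16.2, 12.05 and 16.1 CPM in knockout saline, against 2.22, 0.279 and 6.89 CPM in wild-type saline. The groups did not overlap, yet wild-type saline spread widely, and the log2 fold change of 2.22 ± 1.08 did not pass (adjusted p = 0.231). Mcm3 had a log2 fold change of 1.04 ± 0.35 here (adjusted p = 0.0725).

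Under glycine, knockout against wild type, the lean was the widest of the 4 pairwise comparisons. The log2 fold change was above 0 in 39 of 40 genes, with a median of 0.71, against 49.5% of all genes and a median of -0.01. The exception was Gins2, a GINS subunit, at -0.16, and 67.3% of its exon bases overlap Gse1 on the opposite strand. Overlap with an opposite-strand gene also covered 29.3% of Kif20a, 22.8% of Ube2c and 12.5% of Ccna2. By role the median was 1.08 for mitotic cyclins, kinases and Foxm1 (11 of 11 above 0), 0.86 for chromosome and spindle genes (10 of 10), 0.69 for fork and nucleotide genes (5 of 5) and 0.48 for licensing genes (9 of 10). It was 0.73 for anaphase-promoting complex partners and 0.72 for S-phase entry regulators (2 of 2 in each). Knockout glycine lay wholly above wild-type glycine for 15 of 40 genes and wholly below for 0, while 21.7% of all genes were separated in either direction, 11.2% upward and 10.5% downward. Only 1 gene was called, Mcm3, which is 2.5% of members where 2.56% of all genes were called.

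Mcm3, a subunit of the MCM helicase, had 24.5, 36.6 and 36.9 CPM in knockout glycine and 30.1, 19.99 and 35.0 CPM in knockout saline. Wild-type libraries had 5.90, 13.5 and 16.2 CPM with glycine and 14.5, 13.7 and 13.1 CPM with saline. All 6 knockout libraries lay above all 6 wild-type libraries, which held for this member alone and for 2.89% of all genes. Under glycine the log2 fold change was 1.46 ± 0.35 (SE; adjusted p = 0.0406, edgeR). Leaving out any of the 6 libraries compared ended the call, with adjusted p from 0.0552 to 0.140 and the highest without knockout glycine 5, the library labelled with the lower dose. The other helicase subunits did not pass: Mcm5, for example, had 21.9, 21.0 and 15.5 CPM in knockout glycine, 9.70, 19.7 and 22.2 CPM in knockout saline, 15.7, 19.5 and 12.9 CPM in wild-type glycine, and 16.4, 15.8 and 16.4 CPM in wild-type saline. These 4 groups overlapped.

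**Figure D4:**
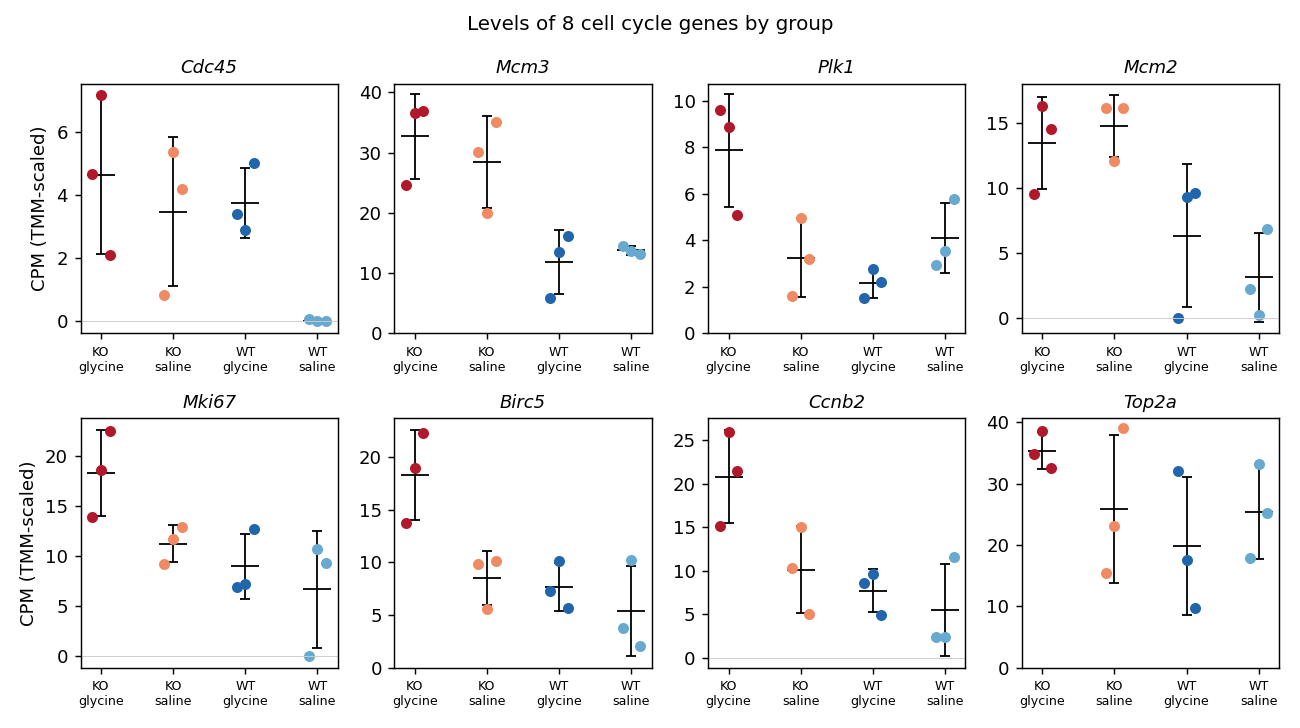
CPM of 8 genes in each library by group, with points for libraries and bars for mean and SD (n = 3). Cdc45 was near 0 in the 3 wild-type saline libraries alone, Mcm3 was higher in all 6 knockout libraries, and Mki67, Birc5 and Ccnb2 were highest in the 3 knockout glycine libraries.

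With all libraries kept, edgeR called none of the 11 genes for mitotic cyclins, kinases and Foxm1 in any comparison. Without wild-type saline 3 it called Bub1b and Ccnb2 between genotypes under saline. DESeq2, with all libraries kept, called Plk1 between genotypes under glycine. At an unadjusted p under 0.05 edgeR had 2 of the 11, Plk1 and Ccnb2, between genotypes under glycine. There 4 of the 40 members (10%) and 13.8% of all genes reached it. In the interaction it had 1 of the 11, Plk1, where 13.1% of all genes reached it. In 2 of the 11, Ccnb2 and Foxm1, all 3 knockout glycine libraries lay above the other 9. Ccnb2, a cyclin B, had 15.2, 25.9 and 21.4 CPM in knockout glycine, 10.3, 15.03 and 4.99 CPM in knockout saline, 8.54, 9.63 and 4.96 CPM in wild-type glycine, and 2.35, 2.42 and 11.6 CPM in wild-type saline. The lowest knockout glycine value was just above the highest of the other 9. Its log2 fold change against wild type under glycine was 1.43 ± 0.59 (adjusted p = 0.284). Ccnb1, the other cyclin B, had 22.7, 20.1 and 6.24 CPM in knockout glycine, 7.50, 13.1 and 11.2 CPM in knockout saline, 12.2, 5.96 and 5.96 CPM in wild-type glycine, and 5.14, 8.55 and 10.03 CPM in wild-type saline. Knockout glycine 6 fell within the other groups, so Ccnb1 showed no such separation.

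Cdk1, the kinase that drives mitosis, had 18.3, 17.8 and 11.8 CPM in knockout glycine, 9.36, 5.01 and 10.4 CPM in knockout saline, 17.9, 4.50 and 8.44 CPM in wild-type glycine, and 6.28, 12.9 and 8.49 CPM in wild-type saline. Knockout glycine lay above knockout saline and overlapped both wild-type groups. The log2 fold change of glycine against saline in knockout mice was 0.95 ± 0.49 (adjusted p = 0.514).

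Plk1, the Polo kinase of spindle formation, had 9.61, 8.87 and 5.07 CPM in knockout glycine and 1.58, 4.96 and 3.18 CPM in knockout saline. In wild-type mice it had 1.49, 2.74 and 2.22 CPM with glycine and 2.92, 3.53 and 5.79 CPM with saline. Glycine libraries lay above saline in knockout mice and below saline in wild-type mice, with narrow gaps in both. The pattern held for 1 of 40 members and for 0.661% of all genes. The log2 fold changes were 1.27 ± 0.62 in knockout (adjusted p = 0.477) and -0.92 ± 0.62 in wild type (adjusted p = 0.655). Against wild type under glycine Plk1 had 1.86 ± 0.63 (adjusted p = 0.164, edgeR), and DESeq2 called it at an adjusted p of 0.0356.

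A pair of widely used markers of dividing cells differed in their spread. Mki67, which encodes the Ki-67 protein, had 14.0, 18.6 and 22.5 CPM in knockout glycine, 9.22, 11.7 and 12.9 CPM in knockout saline, 6.98, 7.23 and 12.8 CPM in wild-type glycine, and 0, 10.8 and 9.36 CPM in wild-type saline. All 3 knockout glycine libraries were above the other 9. Top2a, the topoisomerase that untangles chromosomes, had 34.9, 38.6 and 32.6 CPM in knockout glycine, 15.4, 23.1 and 39.1 CPM in knockout saline, 32.0, 17.6 and 9.81 CPM in wild-type glycine, and 17.8, 33.3 and 25.3 CPM in wild-type saline. Knockout glycine lay above wild-type glycine only, and overlapped both saline groups. Neither gene passed in any comparison, with log2 fold changes of 1.03 ± 0.87 for Mki67 (adjusted p = 0.714) and 0.84 ± 0.41 for Top2a (adjusted p = 0.385) between genotypes under glycine.

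Foxm1, a transcription factor of mitotic genes, completed the set of 4 genes (10% of members, 2.66% of all genes) whose knockout glycine libraries were above the other 9, with Birc5, Ccnb2 and Mki67. It had 116, 38 and 41 counts in knockout glycine, 16, 11 and 0 in knockout saline, 0, 24 and 27 in wild-type glycine, and 2, 13 and 0 in wild-type saline. These counts are low, and no comparison passed. Pcna, the sliding clamp, had 70.1, 76.6 and 75.2 CPM in knockout glycine, 68.0, 49.1 and 74.7 CPM in knockout saline, 69.3, 62.1 and 39.998 CPM in wild-type glycine, and 48.8, 63.3 and 59.1 CPM in wild-type saline. Knockout glycine lay narrowly above both wild-type groups and overlapped knockout saline.

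Tyms, which makes thymidylate, had 23.9, 29.0 and 31.1 CPM in knockout glycine, 18.7, 17.1 and 15.6 CPM in knockout saline, 28.1, 8.95 and 15.3 CPM in wild-type glycine, and 15.8, 20.7 and 26.3 CPM in wild-type saline. The 2 knockout groups were separated, and the wild-type groups spread over both. Its log2 fold change in knockout mice was 0.71 ± 0.36 (adjusted p = 0.494). E2f1, the transcription factor of S phase entry, ran otherwise, with 2.82, 9.24 and 5.28 CPM in knockout glycine, 10.3, 7.46 and 6.52 CPM in knockout saline, 2.17, 5.33 and 5.96 CPM in wild-type glycine, and 5.84, 4.27 and 3.20 CPM in wild-type saline. Knockout saline, not knockout glycine, lay above both wild-type groups, at a log2 fold change of 0.86 ± 0.57 under saline (adjusted p = 0.419).

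**Figure D5:**
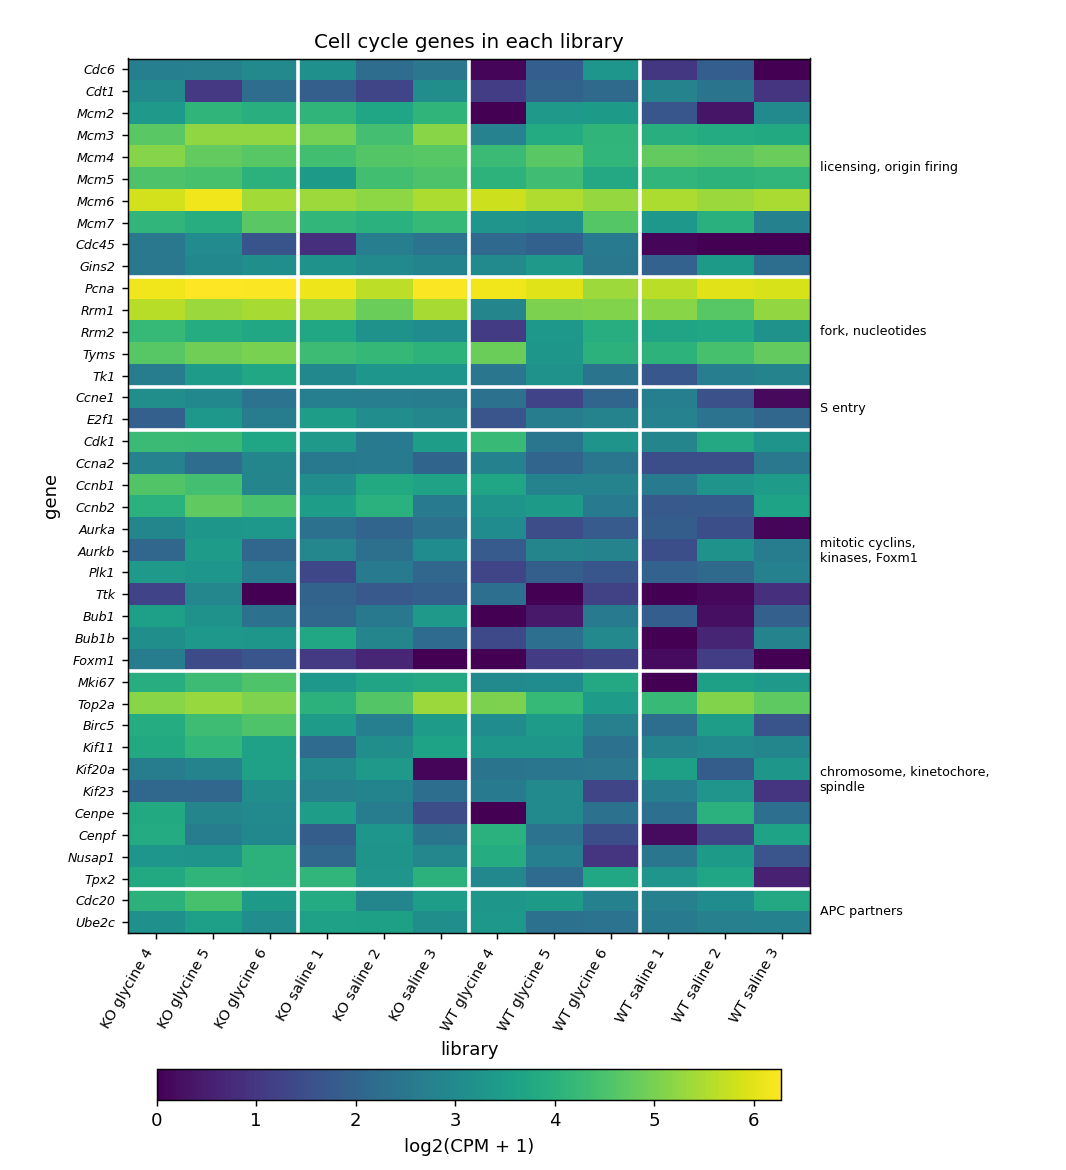
Heat map of log2(CPM + 1) for each of the 40 genes (rows, by role) in each of the 12 libraries (columns, by group), darker where lower. The highest library of a gene lay in knockout glycine for 28 genes and the lowest in wild-type saline for 21, counts not made over all genes. Dark cells mark libraries with near-zero counts, such as Cdc45 in wild-type saline.

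The glycine by genotype interaction, the test of whether glycine acted differently in the 2 genotypes, called 0 of 40 genes with edgeR, and 1.12% of all genes. DESeq2 called 1, Cdc45, and so did edgeR without wild-type glycine 4 or without knockout saline 1. At an unadjusted p under 0.05, reached by 13.1% of all genes, there were 3: Cdc45 at a log2 difference of -6.56 ± 1.52 (adjusted p = 0.0537), Plk1 at 2.19 ± 0.88 (adjusted p = 0.289) and Mcm4 at 0.74 ± 0.34 (adjusted p = 0.377). Mcm4 had 34.1, 26.4 and 24.2 CPM in knockout glycine, against 19.9, 23.4 and 24.2 CPM in knockout saline, so its knockout groups differed little. The interaction was above 0 in 24 of 40 genes, with a median of 0.32, and in 50.9% of all genes. A greater glycine effect in knockout than in wild-type mice was therefore not shown for any of the 40 genes.

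The genes varied more between replicates in wild-type than in knockout libraries. The median coefficient of variation of the 40 genes was 25.8% in knockout glycine, 29.2% in knockout saline, 46.9% in wild-type glycine and 60.3% in wild-type saline. Counting error alone would give medians of 6.97%, 7.85%, 9.15% and 11.6%. The 10451 genes in the same CPM range had medians of 28.4%, 27.9%, 33.3% and 35.4%. Some of this spread came as near-empty values: in 12 of 480 gene and library pairs, spread over 10 genes, a library had 3 counts or fewer while both other libraries of its group had 20 or more. Mki67 had 0 counts in wild-type saline 1, against 116 and 152 counts in the other two, and Mcm2 had 0 counts in wild-type glycine 4, against 191 and 183. Wild-type glycine 4, which stood apart above, supplied 4 of the 12 pairs.

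Other genes of the same pathway came from 5 lists with 109 genes, of which 108 were tested. Over all genes, glycine against saline called 1.39% in wild-type and 1.13% in knockout mice, and the interaction called 1.12%. In wild-type mice glycine changed 0 of 108 (edgeR). The nearest was Kif15, a spindle motor, with 98, 4 and 102 counts in wild-type glycine, against 7, 0 and 0 in wild-type saline. The groups overlapped, at a log2 fold change of 4.65 ± 1.43 (adjusted p = 0.16), while DESeq2 (adjusted p = 0.00837) and FPKM with a pseudocount of 0.1 (adjusted p = 0.0434) called it. In knockout mice 1 rose, Stmn1, a regulator of microtubules, with 69.0, 81.7 and 75.5 CPM in knockout glycine, against 36.0, 31.9 and 38.1 CPM in knockout saline. The groups stood well apart, at a log2 fold change of 1.09 ± 0.20 (adjusted p = 0.0153). Wild-type libraries held 27.5 to 41.9 CPM of Stmn1, and it was also the 1 listed gene called in the interaction (1.28 ± 0.28, adjusted p = 0.0439). Leaving out knockout saline 2, knockout saline 3, knockout glycine 5 or knockout glycine 6 ended its call in knockout mice, with an adjusted p of up to 0.0919. The interaction call ended in 10 of 12 such cases and held only without wild-type saline 2 or wild-type glycine 4. It also ended in all 3 FPKM settings and with the replicate number as a block (adjusted p = 0.0971 to 0.157).

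Between genotypes under saline, 5 of 108 listed genes rose and 2 fell, a smaller share than the 11.3% of all genes called. Those that fell were Cdkn1c, which encodes the CDK inhibitor p57, with 38.7, 42.1 and 38.8 CPM in knockout saline, against 110, 94.3 and 118 CPM in wild-type saline, and Ccnd2, a D-type cyclin, with 80.5, 79.2 and 69.1 CPM in knockout saline, against 144, 152 and 158 CPM in wild-type saline. Neither pair of groups overlapped, and the log2 fold changes were -1.43 ± 0.18 (adjusted p = 0.000112) and -0.99 ± 0.14 (adjusted p = 0.00035). On FPKM values the Ccnd2 call ended in all 3 settings, with an adjusted p of 0.110 to 0.143. Those that rose were Hmgb2, a chromatin protein (1.04 ± 0.19, adjusted p = 0.00187), the histone variant gene H2az1 (0.63 ± 0.15, adjusted p = 0.0124), the growth arrest genes Btg2 and Btg1, and Cdk2, a kinase of S phase. The H2az1 call ended without wild-type saline 1 or knockout saline 3 (adjusted p up to 0.0617). The Btg1 groups overlapped, with 165, 374 and 313 CPM in knockout saline, against 174, 176 and 139 CPM in wild-type saline. An inhibitor and a cyclin were thus both among those that fell, and arrest genes and a kinase among those that rose.

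Under glycine 5 of 108 listed genes rose in knockout and 0 fell, where 2.56% of all genes were called: Stmn1 (1.19), Hmgb2 (1.01), Fen1, a nuclease of the replication fork (1.49), and the mitotic genes Cdca8 (2.12) and Kif22 (1.83). Cdca8 encodes borealin, a partner of survivin in the same complex, and had 14.0, 16.6 and 20.3 CPM in knockout glycine, against 2.78, 2.54 and 6.33 CPM in wild-type glycine. Fen1 had 36.2, 39.8 and 26.6 CPM in knockout glycine, against 11.3, 11.98 and 13.2 CPM in wild-type glycine. Both were wholly separated, with adjusted p of 0.0262 for Cdca8 and 0.0131 for Fen1. The Cdca8 call held without wild-type glycine 6 and ended without any other of the 6 libraries (adjusted p up to 0.120). The Fen1 call held without wild-type glycine 4 or knockout glycine 6 and ended without any of the other 4 (adjusted p up to 0.0665). The Hmgb2 call ended in the 3 FPKM settings (adjusted p = 0.0540 to 0.0762).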

How the data were processed

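RNA-seq was analysed from 12 libraries in 4 groups of 3. The authors deposited, for each gene and library, an estimated count from RSEM, which need not be whole, beside an FPKM value, for 22013 entries. The submitters' processing notes name RSEM, HISAT2 2.1.0, Bowtie2 2.2.8 and StringTie 1.3.1. Build and strand setting of the counting: not given in the sources used here. Entries lacking a symbol numbered 112, with up to 0.0124% of a library's counts, and went unnamed. Estimated counts were rounded (10.4% of the deposited counts were not whole), filtered with filterByExpr to 13928 genes and scaled by TMM. They were tested with edgeR 4.0.16 (quasi-likelihood, robust, 1 model of 4 groups, R 4.3.3) in 5 contrasts, with Benjamini-Hochberg adjustment over all genes and a call at an adjusted p under 0.05. CPM is scaled by the TMM library size. Alternatives were DESeq2 1.42.0, its size factors, other filters, limma 3.58.1 on log2(FPKM + 1) or log2(FPKM + 0.1), mitochondrial and haemoglobin genes left out, the compared groups alone, each library left out, and the replicate number as a block. Intervals of ratios cover counting error only.

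The members and lists were chosen with earlier results of these data known. Named in each pairwise contrast were the members that passed, or otherwise the 3 with the smallest p, and up to 4 listed pathway genes that passed, or otherwise the nearest. The interaction adds 3 members, and Mki67, Top2a, Cdk1, Ccnb1, Mcm5 and Pcna are always given. Ccnb2, Foxm1, Mcm2, Tyms, E2f1, Kif22, Btg1, Btg2 and Cdk2, and the thymocyte marker values, were picked after their values were seen. Promoter sequences are from RefSeq (GRCm38.p6), and exon overlaps from GENCODE vM21. The count test was checked on simulated data, with the same spread for every gene and changes in well-counted genes only. That check does not cover members with few counts or a wide spread.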

Additional observations from a re-analysis of the deposited data

Results flagged for a closer look

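Plk1, the Polo kinase of spindle formation, was singled out because the 3 glycine libraries lay above the 3 saline libraries in knockout mice and below them in wild-type mice. The glycine by genotype interaction was 2.19 ± 0.88 on the log2 scale, with an unadjusted p of 0.0250 and an adjusted p of 0.289 by edgeR's quasi-likelihood test, so it did not pass over all genes. Plk1 had 208, 193 and 96 counts in knockout glycine and 23, 93 and 81 counts in knockout saline, with wild-type libraries at 22, 56 and 42 counts with glycine and 46, 38 and 94 counts with saline. The lowest knockout glycine library (5.07 CPM) and the highest knockout saline library (4.96 CPM) lay close together. Over 9 other settings the interaction ranged from 1.33 to 2.27, with an adjusted p of 0.139 to 0.457. Leaving out each of the 12 libraries gave 1.82 to 2.63, with an adjusted p of 0.274 to 0.463.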

How the results depend on the processing

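No listed result changed direction under any alternative run. The number of cell cycle genes called was small and moved with the settings. Glycine against saline in wild type called 1 gene, and 0 with unfiltered FPKM or when the model held only the 2 groups compared. In knockout mice it called 0 genes, and 1 (Birc5) on FPKM with a pseudocount of 1. Knockout against wild type under saline called 1 gene. It called 2 with DESeq2 or with only the compared groups (Cdc45 and Mcm3), 2 on FPKM with a pseudocount of 1 (Cdc45 and Mcm2) and 0 with unfiltered FPKM. Under glycine it called 1 gene, 2 with DESeq2 (Mcm3 and Plk1), and 0 with unfiltered FPKM or with only the compared groups. The interaction called 0 genes, and 1 (Cdc45) with DESeq2 or with no filter on counts. The cause of these differences was not tested. With each library left out in turn, the counts ran from 0 to 1 for glycine in wild type, 0 to 0 in knockout, 1 to 3 between genotypes under saline, 0 to 0 under glycine and 0 to 1 for the interaction.

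With all libraries kept, 214 differences of single named genes under other settings kept their direction and side of the threshold, 16 lost and 8 gained significance. The number of members with a log2 fold change above 0 ran from 22 to 26, 30 to 36, 28 to 33, 35 to 40 and 21 to 27 with libraries left out, in the same order of comparisons. Over the other settings it ran from 23 to 35, 32 to 38, 30 to 37, 38 to 39 and 21 to 25. On log2(FPKM + 1) the median of all genes moved to 0.34, 0.21, 0.18, 0.07 and -0.10 in that order, beside member medians of 0.39, 0.47, 0.44, 0.70 and 0.14.

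Knockout and wild-type libraries share replicate numbers, but the deviations of the 6 same-numbered pairs correlated at -0.0339 to 0.0194 and 1 of 6 knockout libraries correlated best with its own number, so the numbers were not taken as pairs. With the replicate block 1 gene was called under saline, 1 under glycine and 0 in the interaction, as without it, and the Fen1 difference under glycine and the Stmn1 interaction no longer passed (adjusted p = 0.0585 and 0.116). No paired analysis was possible for glycine against saline because those groups share no replicate numbers. Depth limits the members with few counts: 13 of 40 had a library at 3 counts or fewer.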

Other observations

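The lean of the 40 genes was shared by some neighbouring lists and not by others. Between genotypes under glycine, 33 of 38 further genes of mitosis and cytokinesis had a log2 fold change above 0, with a median of 0.73, and 4 rose and 0 fell. Among 29 genes of origin recognition, polymerases and the fork, 22 were above 0, with a median of 0.36, and 1 rose. Over all genes 49.5% were above 0 in this comparison, 2.56% were called and 13.8% had an unadjusted p under 0.05. The genes that hold cells at rest or start the cycle differed: 7 of 13 CDK inhibitors and arrest genes were above 0 (median 0.06), 10 of 18 pocket protein, E2F and DREAM genes (median 0.07) and 3 of 10 G1 cyclins and kinases (median -0.12), with 0 called in these 3 lists (edgeR; 3, 1 and 1 at an unadjusted p under 0.05).

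The KEGG cell cycle pathway had 150 tested genes, and 22 of the 40 genes belong to it. Its other 128 genes had medians near 0 in all 4 pairwise comparisons, at -0.09 and -0.07 for glycine against saline in wild type and knockout, and at -0.03 and -0.01 for knockout against wild type under saline and glycine. The 28 other genes of KEGG DNA replication had medians of 0.21, 0.21, 0.40 and 0.36 in the same order. Among them 1 was called, in the last comparison, where 2.56% of all genes were called.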
